A study of Homo sapiens with 3 samples.

Results

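The mRNAs of 9 genes that set, remove or feed DNA methylation were examined in a DDX6 eCLIP experiment on MOLM-13 cells, an established human acute myeloid leukaemia line. The genes were chosen by name, with earlier results of these data known. They are the DNA methyltransferases DNMT1, DNMT3A and DNMT3B, the hemimethylated-DNA reader UHRF1, the methylcytosine dioxygenases TET1, TET2 and TET3, and the isocitrate dehydrogenases IDH1 and IDH2. All 9 had a row in the count tables, among 36817 gene identifiers. In eCLIP, RNA is fixed to protein with ultraviolet light, trimmed with RNase I and recovered with an antibody, here one against the RNA helicase DDX6. The compared groups are 2 libraries from the DDX6 immunoprecipitation (IP) and 1 input library with no antibody in its label, all from MOLM-13 cells with no treatment or genotype named in the labels. The experiment is therefore on 1 cell line. The labels do not state whether the IP replicates were grown separately, so their spread, on which the edgeR and DESeq2 p-values rest, may be technical. The lone input has no replicate. Where 3 values follow each other they are those of IP replicate 1, IP replicate 2 and input, in that order.

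DNMT1 copies methylation marks onto the new DNA strand, and UHRF1 brings it to hemimethylated sites. DNMT3A and DNMT3B place marks on unmethylated DNA, whereas the TET enzymes oxidise methylcytosine as a step towards its removal. TET enzymes need alpha-ketoglutarate, which IDH1 makes in the cytosol and IDH2 in mitochondria. DNMT3A, TET2, IDH1 and IDH2 are recurrently mutated in acute myeloid leukaemia. DDX6 represses translation and promotes decapping, and it is required for P-bodies, the cytoplasmic granules in which untranslated mRNAs collect.

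The tables held 1244213 to 7807540 counted reads per library. IP replicate 2 was the shallowest and the input the deepest. Of 10 markers of myeloid leukaemia cells, 10 had at least 10 exonic reads in IP replicate 1 and in the input and 9 in IP replicate 2. Markers of T, erythroid and epithelial cells were low, with sums of at most 30.6 in each 1e6 exonic reads against at least 1.64e+03 for the myeloid list, and CD3E and EPCAM were at 0 in every library. The DDX6 mRNA itself had 1829, 356 and 744 exonic reads. Its log2 fold of IP over input was 0.61 (SE 0.28, edgeR adjusted p = 0.0945), and with intronic reads added it was higher (1.13, edgeR adjusted p = 5.31e-05). By region, on the scale of the region fit used below, its coding sequence (log2 fold 2.36, edgeR adjusted p = 5.97e-10) and 5'UTR (3.60, edgeR adjusted p = 2.14e-13) were higher, its intron was lower (-2.28, edgeR adjusted p = 4.27e-11) and its 3'UTR did not pass (0.64, edgeR adjusted p = 0.0886). Shares of reads below carry exact Clopper-Pearson intervals at 95%, which cover counting error only.

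Over exonic reads, 5 of the 9 mRNAs were higher in the DDX6 IP than in the input and none was lower. The 5 were TET2, TET1, IDH1, TET3 and DNMT1, with folds of 1.98 (DNMT1) to 2.8 (TET2). DNMT3A, DNMT3B, UHRF1 and IDH2 did not pass the test. Across all 10392 genes tested by edgeR's quasi-likelihood method at an adjusted p under 0.05, 16.7% were higher and 11.4% lower. The median log2 fold was 0.98 over the 9 genes and 0.00 over all genes. Folds are relative to the typical gene, because TMM scaling sets that gene near 0. Scaling by total reads alone, which raises exonic folds in general, moved the median gene to 1.24 and called 9 of the 9 genes higher, DNMT3A and IDH2 with a turned sign, against 67.3% of all genes.

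Among the TET dioxygenases, TET2 had 1062, 251 and 256 exonic reads, or 332, 317 and 116 CPM (reads scaled to the TMM-adjusted library size). Both IP libraries lay well above the input and close to each other. The fold was 2.8 (log2 fold 1.49, SE 0.27, edgeR adjusted p = 7.81e-06), higher than for 94.3% of genes tested. TET2 was the one gene of the 9 that was called in exonic reads under every alternative that gave a test. TET3 had 1271, 306 and 411 exonic reads, or 397, 386 and 186 CPM, with the IP values again near each other. Its log2 fold was 1.08 (SE 0.27, edgeR adjusted p = 0.00123). TET1 had few reads, 112, 31 and 35, or 35, 39.1 and 15.8 CPM. Its log2 fold was 1.20 (SE 0.39, edgeR adjusted p = 0.0148), and DESeq2 did not call it (adjusted p = 0.273, the highest of its tested alternatives). The 3 TET folds could not be told apart: TET2 exceeded TET1 by 0.28 log2 (95% interval -0.66 to 1.23) and TET3 by 0.41 (-0.34 to 1.16).

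DNMT1, the maintenance methyltransferase, had 1142, 327 and 428 exonic reads, or 357, 413 and 194 CPM. Both IP libraries were above the input, with a log2 fold of 0.98 (SE 0.27, edgeR adjusted p = 0.0031). The de novo enzyme DNMT3A had 80, 24 and 71 reads, or 25, 30.3 and 32.1 CPM, so that both IP values lay slightly under the input. Its log2 fold was -0.26 (95% interval -0.98 to 0.46, edgeR adjusted p = 0.641). DNMT3B had 82, 26 and 47 reads, or 25.6, 32.8 and 21.3 CPM. Its log2 fold was 0.41 (95% interval -0.38 to 1.19, edgeR adjusted p = 0.476), which leaves room for a fold as large as that of DNMT1. The log2 fold of DNMT1 exceeded that of DNMT3A by 1.23 and 1.17 in the IP libraries, or 1.24 in the fit (95% interval 0.34 to 2.14). It exceeded that of DNMT3B by 0.58 (-0.37 to 1.53). These differences between genes were not tested and do not depend on library scaling.

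UHRF1 had 209, 86 and 135 exonic reads, or 65.3, 109 and 61.1 CPM. The IP libraries disagreed more for UHRF1 than for any other of the 9 genes: IP replicate 1 was level with the input (0.09 log2) and IP replicate 2 above it (0.82). The log2 fold of 0.44 (95% interval -0.15 to 1.03) did not pass (edgeR adjusted p = 0.277). The deposited tables put all of its reads in the columns for non-coding genes, although UHRF1 encodes a protein.

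IDH1 and IDH2 carry out the same reaction in different compartments, and their values lay apart. IDH1 had 353, 84 and 105 exonic reads, or 110, 106 and 47.5 CPM, with a log2 fold of 1.19 (SE 0.29, edgeR adjusted p = 0.000812). DESeq2 left it just above the threshold (adjusted p = 0.0647, the highest of its tested alternatives). IDH2 had 152, 42 and 139 reads, or 47.5, 53 and 62.9 CPM. Both of its IP values were under the input, with a log2 fold of -0.34 (95% interval -0.95 to 0.26, edgeR adjusted p = 0.43). The log2 fold of IDH1 exceeded that of IDH2 by 1.60 and 1.38 in the IP libraries, or 1.53 in the fit (95% interval 0.70 to 2.36). This difference was not tested.

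**Figure D1:**
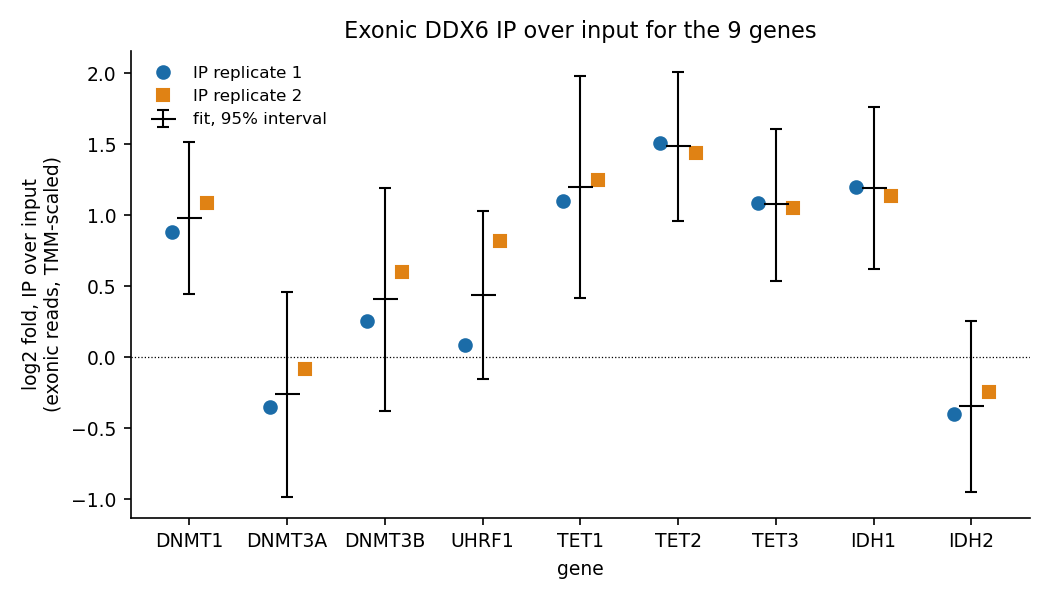
Log2 fold of DDX6 IP over input in exonic reads (vertical axis, TMM-scaled) for each of the 9 genes. Circles and squares are IP replicates 1 and 2, and horizontal bars with whiskers are the fitted value and its 95% interval. The intervals of TET1, TET2, TET3, IDH1 and DNMT1 lie above 0, and those of the other genes span it.

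When intronic reads were added to the exonic ones, TET1, TET2 and IDH1 were higher (19.6% of all genes), DNMT1 (log2 fold 0.54, edgeR adjusted p = 0.0684) and TET3 (0.48, 0.102) no longer passed, and DNMT3A was lower (-0.82, edgeR adjusted p = 0.00358, 18.6% of all genes). DESeq2 called 3 of the 9 higher (DNMT1, TET2 and TET3), against 6.53% of all genes.

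The share of a gene's own reads that was exonic needs no scaling between libraries, and it was larger in both IP libraries than in the input for all 9 genes. For TET2 it was 86.6% (95% interval 84.6 to 88.5) in IP replicate 1, 77.7% (72.8 to 82.1) in IP replicate 2 and 22.7% (20.3 to 25.3) in the input. TET3 went from 23.7% in the input to 84.1% and 77.9%, and DNMT1 from 23.2% to 72.9% and 70.6%. The shift of TET2, 59.5 percentage points from the input to the mean of the IP libraries, was larger than that of 96.1% of 6906 genes with at least 30 reads in every library, and that of TET3 (57.2 points) larger than that of 94.3%. The median gene shifted by 34.2 points, and DNMT3A and IDH2 were below that. Over these 6906 genes the median exonic share was 75%, 71.4% and 28.5%, so a rise was the general direction.

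DNMT3A stood lowest in level. Only 29.6% (24.2 to 35.5) and 29.3% (19.7 to 40.4) of its IP reads were exonic, against 8.68% (6.84 to 10.8) in the input, a shift of 20.8 points. Most of its reads came from distal introns in every library, 159 of 270 in IP replicate 1, 43 of 82 in IP replicate 2 and 657 of 818 in the input. IDH2 started from the highest input share of the 9, 52.5% (46.3 to 58.6), and reached 81.3% and 80.8%, a shift of 28.6 points. IDH1 reached the highest IP share, 91% and 86.6% from 41.5%. DNMT3B went from 14.9% to 56.9% and 52%, UHRF1 from 14.7% to 58.7% and 62.8%, and TET1 from 32.7% to 76.2% and 73.8%.

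**Figure D2:**
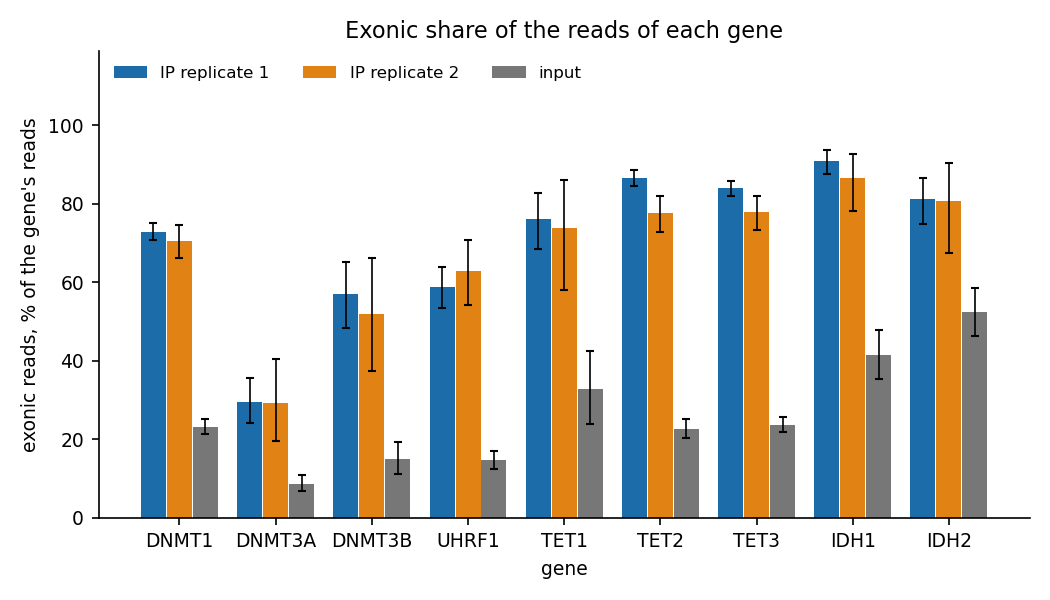
Exonic reads as a percentage of each gene's exonic and intronic reads (vertical axis) in each of the 3 libraries, both IP replicates and the input. Whiskers are exact 95% intervals. For each of the 9 genes both IP bars exceed the input bar, and the DNMT3A bars are the lowest in all 3 libraries.

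Reads were next compared by transcript region, in 1 edgeR fit over 28825 gene regions scaled over exons and introns together, so these folds sit on another scale than those above. Coding sequence was higher in the IP for 6 of the 8 genes with coding reads, against 51.2% of all coding regions, and lower for none, against 0.208%. TET2 led with 656, 142 and 125 coding reads (log2 fold 2.37, SE 0.36, edgeR adjusted p = 4.8e-10). IDH1 followed with 203, 60 and 48 coding reads (2.25, SE 0.40, edgeR adjusted p = 1.16e-07). TET1 had 74, 19 and 18 (2.11), DNMT1 1015, 277 and 351 (1.66), DNMT3B 39, 10 and 15 (1.45) and TET3 244, 78 and 112 (1.35). In each of these 6 both IP libraries were above the input by at least 1.20 log2. The coding regions of DNMT3A (39, 16 and 26 reads, 0.93, edgeR adjusted p = 0.113) and IDH2 (105, 28 and 89 reads, 0.34, edgeR adjusted p = 0.46) did not pass. The median over all coding regions was 1.02, above both. The call for DNMT3B ended with DESeq2 (adjusted p = 0.265, the highest of its tested alternatives), with the scaling of the exonic fit and with no read filter, and that for TET3 ended with the scaling of the exonic fit (0.76, edgeR adjusted p = 0.0559).

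The 3'UTR was higher for 5 of 8 genes, against 23.9% of all 3'UTRs, and lower for none, against 6.83%. TET2 had 382, 95 and 115 reads there (log2 fold 1.79, SE 0.35, edgeR adjusted p = 1.75e-06). TET3 had 1026, 228 and 298, the most 3'UTR reads of the 9 genes (1.77, SE 0.35, edgeR adjusted p = 2.08e-06). The 2 values were alike and stood above the median of all 3'UTRs, 0.28. IDH1 (105, 22 and 39 reads, 1.41), TET1 (38, 11 and 16, 1.38) and DNMT1 (125, 50 and 73, 1.15) were also higher. Each of these 3 calls ended with DESeq2 (adjusted p = 0.111, 0.272 and 0.102), with no read filter and with the scaling of the exonic fit, whereas those of TET2 and TET3 held in each. DNMT3B (41, 15 and 31 reads, 0.68), IDH2 (45, 10 and 44, 0.05) and DNMT3A (39, 6 and 45, -0.31) did not pass.

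The 5'UTR could be tested for 2 genes and neither passed, against 33.2% called higher and 4.49% lower among all 5'UTRs. TET2 had 24, 14 and 16 reads (log2 fold 1.17, edgeR adjusted p = 0.0981). IDH1 had 45, 2 and 18 (0.95, edgeR adjusted p = 0.163). Its replicates went apart, at log2 folds of 1.29 and -0.92, and without IP replicate 1 the value was -1.07. For UHRF1, whose exonic reads were counted as non-coding exon, the region fit gave a log2 fold of 1.04 (SE 0.35, edgeR adjusted p = 0.00604). Among all non-coding exons 18.4% were higher, with a median of -0.05. As UHRF1 encodes a protein, coding regions are a further comparison: 51.2% of them were higher, with a median of 1.02. Neither background matches, because the UHRF1 row holds all of its exonic reads, from any part of the mRNA. Among 3'UTRs 23.9% were higher, with a median of 0.28. The gene-level exonic fit compares like with like. There UHRF1 had a log2 fold of 0.44 (edgeR adjusted p = 0.277), higher than for 69.1% of genes tested. The UHRF1 call in the region fit depended on the scaling. With the factors of the exonic fit the log2 fold was 0.46 (edgeR adjusted p = 0.272), and DESeq2 gave an adjusted p of 0.0834.

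Introns were lower in the IP for 7 of 8 genes, against 83% of all introns. TET3 was lowest with 241, 87 and 1320 intronic reads (log2 fold -2.14, SE 0.31, edgeR adjusted p = 8.36e-11), followed by TET2 with 164, 72 and 871 (-1.95). IDH1 (-1.80), DNMT3B (-1.79), DNMT3A (-1.78), IDH2 (-1.71) and DNMT1 (-1.50) were lower too. So was the intron of UHRF1 (147, 51 and 785 reads, -2.14), against 59.2% of introns counted as non-coding and 83% of those counted as coding. DESeq2 did not call the IDH2 intron (adjusted p = 0.0696). The median of all introns was -1.93, and the values of the 9 genes lay on both sides of it. The TET1 intron did not pass, with 35, 11 and 72 reads (-0.85, 95% interval -1.73 to 0.03, edgeR adjusted p = 0.0953). For DNMT3A the intron was the one region that passed.

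Of the 9 genes DNMT1 had the most intronic reads in every library. Within its introns, 38.4% (33.8 to 43.3) of the reads of IP replicate 1 and 41.2% (32.8 to 49.9) of those of IP replicate 2 lay at splice sites, against 26.9% (24.6 to 29.3) in the input. The distal intron share fell from 43.1% in the input to 30.9% and 29.4%. Across all coding genes together the splice site share was 15.8%, 15.5% and 8.36%, which went the same way. TET2 and TET3 had most of their intronic reads in distal introns, at 82.3%, 87.5% and 93% for TET2 and 89.6%, 88.5% and 92.3% for TET3.

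**Figure D3:**
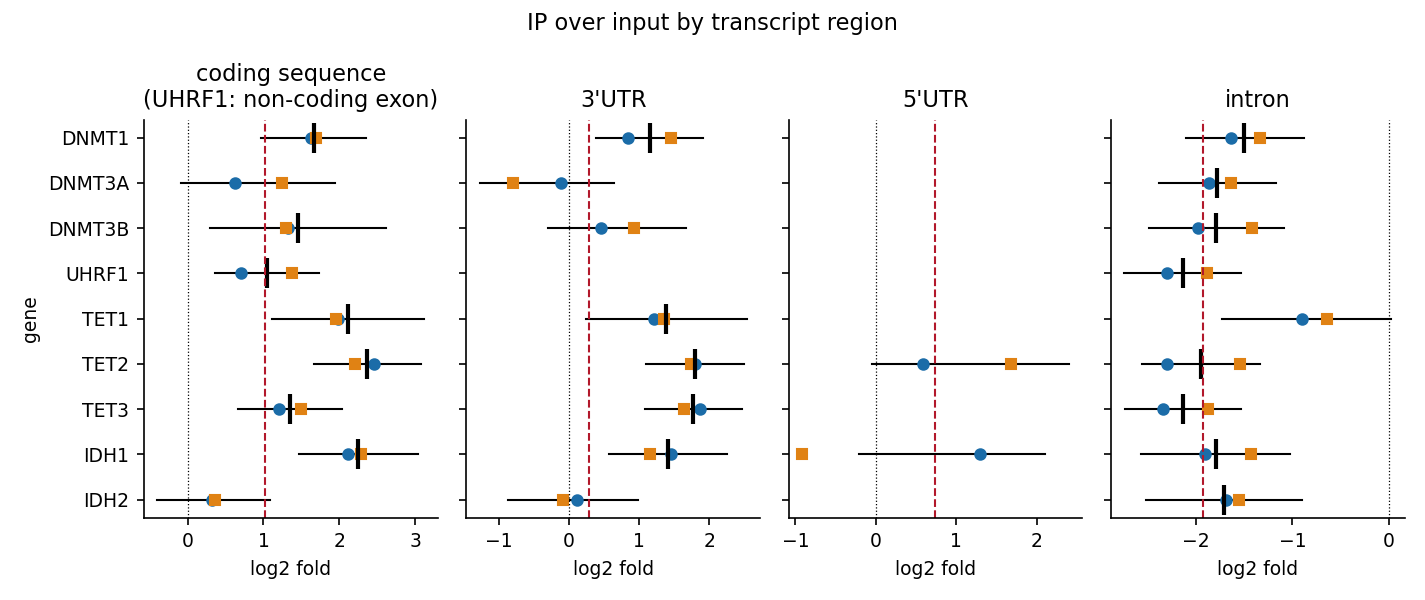
Log2 fold of DDX6 IP over input (horizontal axes) for the coding sequence, 3'UTR, 5'UTR and intron of each gene (UHRF1: non-coding exon and intron). Circles and squares are IP replicates 1 and 2, lines the 95% interval of the fit, thick ticks regions that passed the test, and red dashed lines the median of all tested coding sequences, 3'UTRs, 5'UTRs and introns. Both replicate points lie above 2 for the coding sequence of TET2 and IDH1, and below 0 for the intron of every gene.

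Within each mRNA, the coding fold exceeded the 3'UTR fold in both IP libraries for 7 of 8 genes. The median excess over 6552 genes was 0.74 and 0.90 log2 in the IP libraries, so most genes went this way in each library. The share of genes that did so in both was not counted. DNMT1 had 0.77 and 0.23, TET2 0.66 and 0.46, and IDH1 0.65 and 1.14. TET3 was the exception: its 3'UTR fold exceeded its coding fold by 0.67 and 0.15, a direction shared in both libraries by 7.65% of genes. The 3'UTR held 80.7%, 74.5% and 72.5% of the exonic reads of TET3. Tested against the rest of its own gene, no exonic region of the 8 genes passed, with adjusted p from edgeR's diffSpliceDGE between 0.503 and 0.94. Of all 15272 regions in that test 3.12% passed, and the TET3 coding region had -0.33 (adjusted p = 0.67).

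The authors' deposited peak lists show where along the mRNAs the reads gathered. Each peak has a log2 fold and a -log10 p against the input, which are the authors' own values, and a peak is called strong here at 3 or more on both scales. The 9 genes had 169 peaks in IP replicate 1 and 109 in IP replicate 2, most of them in coding sequence (86 and 57) or 3'UTRs (51 and 29). Of these, 42 and 30 were strong. Among all peaks 11.5% and 12.9% were strong, a smaller part than of the pooled peaks of the 9 genes. TET2 held 19 of the 42 and 12 of the 30, and DNMT1 13 and 6. In IP replicate 1 the larger part thus came mainly from TET2 and DNMT1, and it was not a trait of each gene. Abutting peaks were counted singly, and the 42 and 30 strong peaks made 36 and 29 sites. Strong peaks were seen in 5 of the 9 genes in IP replicate 1 (DNMT1, TET2, TET3, UHRF1 and IDH1). IP replicate 2 had them in these and DNMT3B. Among all genes with a peak 31.6% and 34.6% had a strong one, with no account taken of the number of peaks per gene. DNMT3A, TET1 and IDH2 had no strong peak in either list, and DNMT3A had no peak at all in IP replicate 2. Of the strong peaks of IP replicate 1, 9 of 42 overlapped one of IP replicate 2, near the 22.1% for all strong peaks, and 10 of 30 did so in the other direction, near 33.6%. Sites were thus shared between replicates about as often as in the lists as a whole.

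TET2 had the most strong peaks, 19 of 32 in IP replicate 1 and 12 of 20 in IP replicate 2. They were divided between coding sequence (10 and 6) and the 3'UTR (9 and 5), with 1 more in the 5'UTR in IP replicate 2. Coordinates are on hg19, the build named in the submitters' notes. The coding peak at chr4:106155261-106155384 had a log2 fold of 3.97 and a -log10 p of 13.7 in IP replicate 1, and the overlapping one of IP replicate 2, chr4:106155273-106155375, 4.49 and 11.3. It was the 1 TET2 peak in the authors' list of 1587 reproducible peaks (4.23 and 11.3). A second run of peaks lay at the border of coding sequence and 3'UTR in both replicates: chr4:106197631-106197867 in IP replicate 1, made of a coding peak (4.15) and an abutting 3'UTR peak (5.47), and chr4:106197616-106197665 (5.45) and chr4:106197682-106197736 (5.45) in IP replicate 2. The last is labelled 3'UTR but lies within bases labelled coding in IP replicate 1, so the authors' labels, on which the division above rests, differ there between the lists. The 3'UTR peak at chr4:106198557-106198609 had the largest fold of any peak of the 9 genes, 5.96 log2 in IP replicate 2. In IP replicate 1 the overlapping peak reached 3.53.

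DNMT1 had the most peaks, 46 and 41, of which 13 and 6 were strong, and every strong one lay in coding sequence. The widest strong site of IP replicate 1 was chr19:10305496-10305629 (134 bases, on the minus strand), where the larger of 2 abutting peaks had a log2 fold of 4.01 and a -log10 p of 25.2. Next to it in strength was chr19:10286216-10286294, 79 bases made of 3 abutting peaks of 3.88 to 4.40 log2. By -log10 p, the strongest of IP replicate 2 was chr19:10283777-10283851 (3.36 log2, -log10 p 15.9), which overlapped a strong peak of IP replicate 1 (3.53). Of the peaks in the reproducible list, 8 were in DNMT1, all coding. They fell in 4 stretches, around chr19:10277274-10277350, chr19:10283767-10283804, chr19:10286216-10286294 and chr19:10305496-10305629. The 3 peaks of the DNMT1 3'UTR in each list were not strong.

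TET3 peaks were mostly in the 3'UTR, 22 of 26 in IP replicate 1 and 11 of 16 in IP replicate 2. Only 3 and 5 were strong, all of them in the 3'UTR, and no strong TET3 peak overlapped one of the other replicate. The largest fold was at chr2:74331082-74331137 in IP replicate 2 (4.23 log2). With the fold minimum lowered to 1, 23 of 26 TET3 peaks of IP replicate 1 passed, against 34.3% of all its peaks. In IP replicate 2 the number stayed at 5 of 16, against 23.9%. All 16 of these peaks passed the lowered fold minimum, so the rest missed on -log10 p alone. The median fold of TET3 peaks was alike in the replicates, 2.40 and 2.38 log2. IP replicate 2 was the shallowest library, and whether its depth set the lower number was not tested.

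IDH1 had 18 and 10 peaks, of which 6 and 2 were strong, all in coding sequence. The strongest was chr2:209113095-209113227 in IP replicate 1 (3.36 log2, -log10 p 14.2). The 1 site strong in both lists was chr2:209116219-209116281 in IP replicate 1 (3.08) and chr2:209116235-209116276 in IP replicate 2 (3.64). IDH2 had 6 and 4 peaks with folds of at most 1.82 and 2.64 log2, and so its peaks were few and low. UHRF1 had 13 and 10 peaks. One site was strong in both lists, chr19:4909619-4909668 in IP replicate 1 (3.13) and chr19:4909625-4909672 in IP replicate 2 (4.96).

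The genes with few reads had few peaks. DNMT3A had 9 peaks in IP replicate 1, none above 2.82 log2, and 0 in IP replicate 2. DNMT3B had 7 and 5 peaks, with 2 strong in IP replicate 2 at a -log10 p of 3.08, barely past the threshold. TET1 had 12 and 3 peaks with folds up to 3.33 and 4.23 log2, but its -log10 p reached just 1.76 and 2.02. A further gene, such as a long non-coding RNA with an intron across TET2, was annotated on every DNMT1, TET1, TET2, TET3 and UHRF1 peak, and the sources used here do not say how reads of overlapping genes were assigned.

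**Figure D4:**
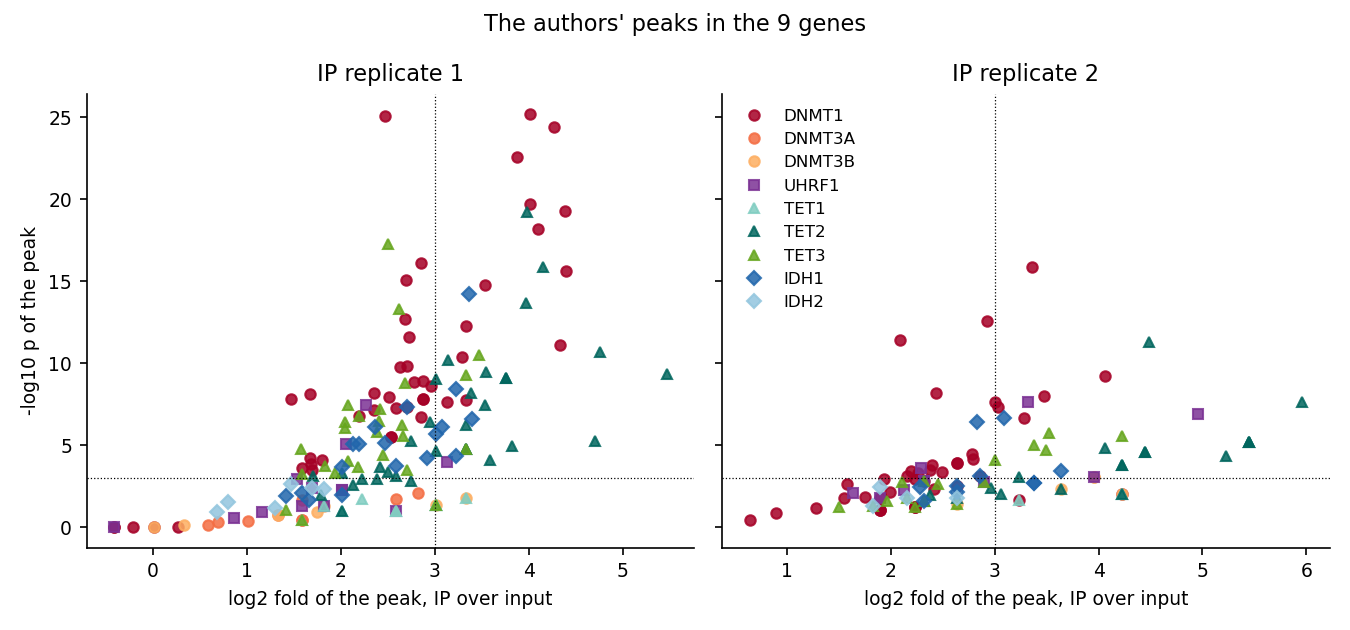
The authors' log2 fold (horizontal axis) and -log10 p (vertical axis) of every peak in the 9 genes, in IP replicate 1 (left) and IP replicate 2 (right). Dotted lines mark 3 on each scale. DNMT1 and TET2 peaks fill the upper right of the left panel, and no peak of DNMT3A, TET1 or IDH2 lies past both lines.

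For genes with at least 30 input reads in each of coding sequence, 3'UTR and intron, the genes of most similar region pattern were found by Euclidean distance over 6 values, the log2 folds of these regions in both IP libraries, among 3454 genes. Nearest to TET2 were EPC1 (distance 0.38) and SHOC2 (0.40). The median distance from TET2 over these genes was 3.22, and the nearest genes lie below it by construction. Nearest to TET3 were BPTF (0.38) and INPP5D (0.45), and nearest to DNMT1 SMARCA2 (0.45) and PRPF4 (0.45). Nearest to IDH1 were MAML1 (0.22) and COIL (0.32). IDH2 was nearest to RPL13 (0.41), a ribosomal protein gene, and TMEM43 (0.44). All of these values share the 1 input library.

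Other genes of the pathway were grouped by role in 4 lists. Of 12 tested cofactors and relatives of the enzymes 1 was higher and none lower, against 16.7% and 11.4% of all genes, with a median log2 fold of -0.05. The higher one was ZBTB24, a zinc finger gene whose loss causes an immunodeficiency with altered DNA methylation, with 272, 68 and 31 exonic reads (log2 fold 2.60, SE 0.36, edgeR adjusted p = 2.58e-08). It exceeded 99% of all genes. The DNMT1 partners USP7 (0.58, edgeR adjusted p = 0.0707) and PCNA (0.22, 0.556) and the remodeller HELLS (-0.38, 0.235) were not called, nor was the UHRF1 relative UHRF2 (-0.56, 0.161).

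Of 11 tested readers of methylated DNA, their relatives and partners 3 were higher and 1 lower, with a median of 0.02. With 16.7% and 11.4% of all genes called, these counts are near the background. SETDB1, a histone methyltransferase, had 568, 159 and 121 exonic reads (log2 fold 1.78, SE 0.28, edgeR adjusted p = 4.15e-07). MBD5 had 98, 20 and 18 reads (1.80) and MBD4, which is also a DNA glycosylase, 376, 99 and 150 (0.83). DESeq2 called SETDB1 alone. MBD2 was lower with 115, 26 and 159 reads (-1.05, edgeR adjusted p = 0.00673). With intronic reads included MBD5 turned to -0.71 (edgeR adjusted p = 0.00736), and with library-size scaling MBD2 turned to 0.20 (0.609).

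Of 12 tested genes of base excision and active demethylation 3 were higher and none lower, with a median of 0.13, and 3 of 12 is likewise near the 16.7% of all genes. These were the glycosylase gene NEIL3 (330, 93 and 122 reads, 0.98, edgeR adjusted p = 0.00503), GADD45B (234, 75 and 104 reads, 0.80, 0.0375) and the endonuclease gene APEX1 (418, 109 and 184 reads, 0.68, 0.0419). GADD45B and APEX1 also missed the threshold with no read filter. None of the 3 was called by DESeq2, and NEIL3 turned to -0.39 with intronic reads included (edgeR adjusted p = 0.173). TDG, the glycosylase that removes the bases made by TET enzymes, had a log2 fold of -0.11 (edgeR adjusted p = 0.825).

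Of 21 tested genes of methyl donor supply and alpha-ketoglutarate metabolism 1 was higher and 4 lower, against 16.7% and 11.4% of all genes, with a median of -0.34. MAT2B, a subunit of the enzyme that makes S-adenosylmethionine, was higher (465, 125 and 204 reads, 0.71, edgeR adjusted p = 0.0317). D2HGDH, the dehydrogenase that clears hydroxyglutarate, was lower with 26, 23 and 97 reads (-1.58, edgeR adjusted p = 0.00219). Its replicates were far apart, at log2 folds of -2.30 and -0.58, and without IP replicate 1 the value was -0.65. The other lower ones were the citrate synthase gene CS (-0.77), the fumarase gene FH (-0.84) and AHCYL1 (-0.76). With DESeq2 no gene of this list was called, and with library-size scaling none was lower. MAT2A had 1848, 475 and 1169 reads and a log2 fold of 0.15 (edgeR adjusted p = 0.733).

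**Figure D5:**
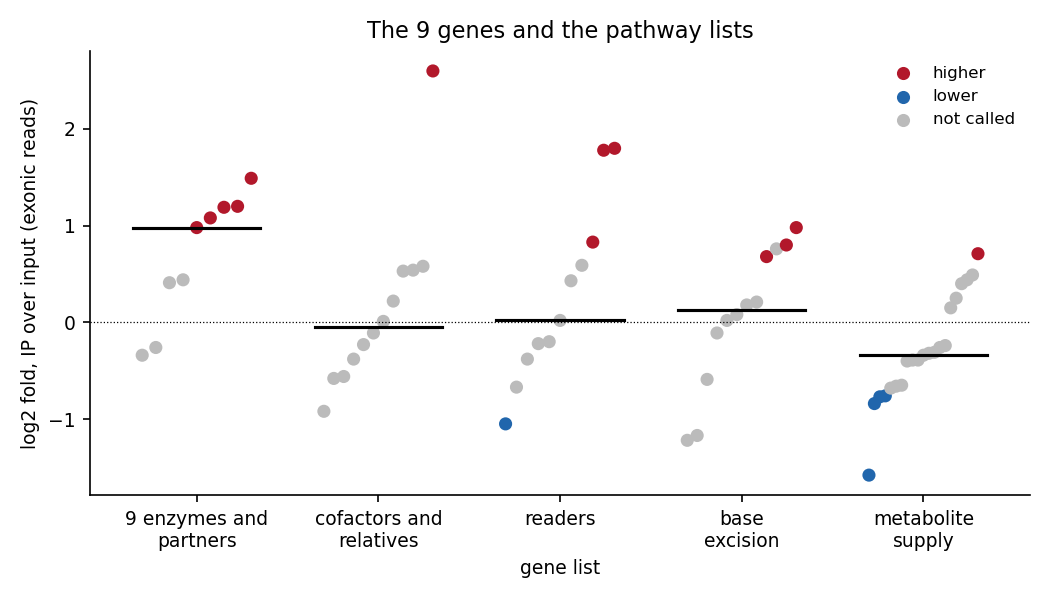
Log2 fold of DDX6 IP over input in exonic reads (vertical axis) for each tested gene of the 9 enzymes and partners and of 4 pathway lists (horizontal axis). Red, blue and grey points are genes called higher, called lower and not called, and bars are list medians. The median is 0.98 for the 9 genes and between -0.34 and 0.13 for the lists.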

How the data were processed

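The deposited tables give raw counts of reads by gene and transcript region. In the authors' peak lists each peak has a -log10 p, at most 400, and a log2 fold, both of IP against input. The submitters' processing notes name hg19, STAR, SAMtools, cutadapt and UMI-tools. No version, peak caller, counter, annotation or strand setting is given in the sources used here.

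Lines of totals and of intergenic reads (2.63% to 4.05% of reads) were left out. Symbols came from the name table (28576 of 29754 Ensembl identifiers) and, for UHRF1, from the deposited peak lists. Genes, or gene regions, that reached 10 reads in 2 or more of the 3 libraries were fitted with edgeR 4.0.16 (TMM, glmQLFit, glmQLFTest) and called where the p, adjusted over all features by Benjamini-Hochberg, was under 0.05. Alternatives were DESeq2 1.42.0, other scalings, other read minimums, intronic reads added, only coding and 3'UTR reads, and other peak thresholds. The spread came from 2 IP libraries with 1 residual degree of freedom, and the input was assumed to vary like them. That spread was pooled over features by edgeR, with prior degrees of freedom of 75.8 for genes and infinite for regions. A gene's own replicate agreement therefore had little weight in its edgeR p-value and interval. Replicate log2 folds used a prior count of 2. The 95% intervals of folds were built from the fitted log2 fold and its F statistic. Genes used a t quantile and regions a normal quantile. Peaks were shared at an overlap of 1 base on the same strand. The fits were also run on simulated counts that gave every library the same spread. That outcome is not reported here and does not bear on the calls above.

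The 9 genes and the pathway lists were chosen with earlier results of these data known. Named were all 9 genes, DDX6, per list the called genes with the largest, smallest and most significant folds, and small counts in full. USP7, PCNA, HELLS, UHRF2, TDG and MAT2A were named for their roles after values were seen.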

Additional observations from a re-analysis of the deposited data

How the results depend on the processing

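Fold changes here rest on 1 input library, so its own deviation cannot be separated from the IP effect, and genes with few reads (DNMT3A, DNMT3B, TET1) have wide intervals. No paired analysis was possible because the input carries no replicate number. Leaving out an IP library left no residual degrees of freedom, so that alternative gave values and no counts. Without IP replicate 1 the log2 folds of 2 uncalled regions turned (IDH1 5'UTR -1.07, IDH2 3'UTR -0.06), and none turned without IP replicate 2. Of the 9 genes the number higher, 5, became 9 with library size alone, 3 with DESeq2 and 3 with intronic reads, where 1 was lower. Their exonic log2 folds turned with library size alone for DNMT3A (0.98) and IDH2 (0.90), and with intronic reads for DNMT3B (-0.28), UHRF1 (-0.42) and IDH2 (0.22). Region folds turned for the DNMT3A 3'UTR with library size alone (0.33), for IDH2 with exonic scaling factors (coding -0.25, 3'UTR -0.55) and for its 3'UTR with no filter (-0.22). Library-size scaling turned MBD2 (0.20) and CS (0.47), and intronic reads turned MBD5 (-0.71), NEIL3 (-0.39) and CS (0.10).

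Numbers higher in the region fit became 2 of 8 3'UTRs with exonic scaling factors, DESeq2 or no filter (9.94%, 10.5% and 7.83% of all 3'UTRs), 2 5'UTRs with library size alone (53.6%), and 0 for the UHRF1 non-coding exon with exonic factors, DESeq2 or no filter (9.14%, 7.21% and 1.23%). With library size alone (67.3% of all genes higher, 1.36% lower) 9 cofactors, 9 readers, 9 base excision and 11 metabolism genes were higher, and 0 readers and 0 metabolism genes lower. With DESeq2 (6.53%, 2.46%) 1 reader, 0 base excision and 0 metabolism genes were higher, and 0 readers and 0 metabolism genes lower. With intronic reads (19.6%, 18.6%) 3 cofactors, 6 readers and 4 metabolism genes were higher and 3 cofactors and 3 readers lower. With no filter (4.91%, 3.58%) 1 base excision and 0 metabolism genes were higher and 1 metabolism gene lower. At 30 reads or more (13.8%, 10.7%) 1 base excision and 0 metabolism genes were higher, and 1 cofactor and 1 base excision gene lower. With coding and 3'UTR reads (17.1%, 11.3%) 1 cofactor, 2 readers and 3 base excision genes were lower. Strong peaks numbered 107 and 47, with 38 shared, at a log2 fold of 1 or more (34.3% and 23.9% of all peaks), and 17 in IP replicate 2, with 5 shared, at a -log10 p of 5 or more (5.81% of its peaks). The cause of these changes was not tested, beyond library-size scaling moving the median gene by 1.24 log2.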
